A study of Mus musculus with 8 samples.

Results

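The response of Padi4 KO neutrophils to R848 was examined by setting 2 libraries of Padi4 KO cells stimulated with R848 (KO-R848) against 2 libraries of unstimulated Padi4 KO cells (KO-Nostim), which were all the libraries of that genotype among the 8 of the series. Of 24421 genes in the count table, 12254 were tested, namely those detected (1 or more counts) in no fewer than 2 of the 8 libraries. All mice were 8 weeks old and on the C57BL/6 strain background, and each of the 4 groups (WT or Padi4-/-, without or with R848) held 2 libraries of bone marrow neutrophils, which had been isolated magnetically. The KO line lacks exon 1 of Padi4 in every cell, so any cell of the marrow could carry an effect of the deletion. R848 was used at 1 µg/ml for 6 h. The titles give the unstimulated libraries a time of 0 h, whereas the protocol text places stimulated and unstimulated wells in the same incubation, so an effect of R848 and an effect of time in culture cannot be told apart from the labels. The libraries of a group were analyzed in duplicate and no source used here says whether they came from separate mice, so the p-values measure the spread between these libraries, which may be technical.

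R848 is a small imidazoquinoline that activates the endosomal receptor TLR7 in mice. TLR7 signals through the adaptor MyD88, IRAK kinases and TRAF6 to the kinase TAK1, which activates the IKK complex with NF-κB on one branch and the MAP kinases p38, JNK and ERK on another. Neutrophils are the most abundant leukocytes of the marrow, store proteases and antimicrobial proteins in granules, adhere to endothelium through β2 integrins and other adhesion molecules, and generate superoxide with the NADPH oxidase. Padi4 encodes PAD4, which converts arginine of histones to citrulline and is required for the release of neutrophil extracellular traps.

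The libraries held between 562446 and 1177972 counts on genes, of which the 4 Padi4 KO libraries held 716440 and 1102363 (KO-Nostim) and 1177972 and 1134163 (KO-R848). Levels are given as CPM, the counts relative to a library size scaled by the TMM method of edgeR, and 3 counts equalled between 2.55 and 5.33 CPM of the library total. These are levels per library, not per gene length, so they are compared between libraries and not between genes. Padi4 itself had 40 and 54 counts in KO-Nostim and 34 and 21 in KO-R848, against 590 and 527 in unstimulated and 166 and 234 in stimulated WT neutrophils. Its log2 fold change between Padi4 KO and WT was -4.45 without R848 and -3.92 after it, in the direction of the labels. The counts cover the whole gene, so reads outside the deleted exon are included in them. Among the mature neutrophil markers, S100a8 and S100a9, which form calprotectin, had 17572 and 16422 CPM and 33337 and 31985 CPM in KO-Nostim and were 2 of the 3 genes with the most counts there. Ly6g was not analysed here.

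**Figure D1:**
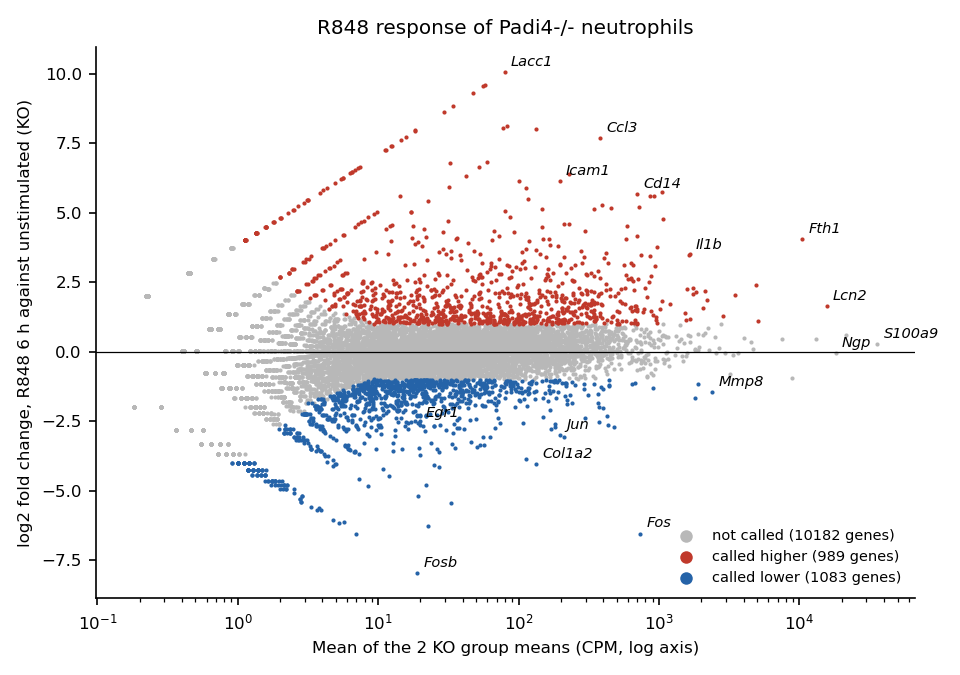
Each point is 1 of the 12254 genes tested, placed by its mean expression (horizontal axis, CPM on a log scale) and by its log2 fold change from KO-Nostim to KO-R848 (vertical axis), with the 989 genes called higher and the 1083 called lower in colour. Fos lies far below and Ccl3, Cd14 and Icam1 far above the band of genes that were not called.

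R848 was followed by a change of 2072 genes (16.9% of those tested) in Padi4 KO neutrophils, with 989 higher (8.07%) and 1083 lower (8.84%). A gene was called when its change exceeded 2-fold and its adjusted p, from edgeR's quasi-likelihood F test adjusted by Benjamini and Hochberg's false discovery rate, was below 0.1. With genes at 0 counts in a group set to their lower bound (3 counts over that group), 376 of the genes called higher rose over 4-fold, 80 over 16-fold and 15 over 64-fold, and 298, 16 and 2 of those called lower fell by as much. The 2 KO-Nostim and the 2 KO-R848 libraries did not overlap in 61.17% of all genes tested and in 986 of the 989 and 1076 of the 1083 called genes, so that a lack of overlap is a description of a called gene and adds nothing to its call. Many called genes had few counts, and 816 of the 989 and 679 of the 1083 had at least 10 counts on average over the 4 libraries. The 989 genes together took 9.42% and 9.49% of all counts in KO-Nostim and 28.4% and 28.0% in KO-R848, and the 1083 genes took 8.26% and 8.28% before and 2.12% and 2.17% after. The median log2 fold change of all genes tested was -0.03 with TMM, -0.41 with library size alone, -0.11 with relative log expression factors and -0.14 with DESeq2. Changes are therefore relative to the TMM scale, and with library size alone only 624 genes were called higher and 2072 lower, so that the share of higher genes among the calls went from 47.7% to 23.2%.

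The steepest rises belonged to genes with few or no counts before R848. Lacc1, an enzyme of purine metabolism in myeloid cells linked to inflammatory disease, had 0 counts in both KO-Nostim libraries and 176 in each KO-R848 library, a level at least 119.9-fold higher when the 0 is replaced by 3 counts over the group. Traf1, an adaptor of TNF receptors, went from 0 counts to 136 and 120 (at least 87.2-fold higher), and Il10, the main anti-inflammatory cytokine of myeloid cells, from 0 to 138 and 109 (at least 84.2-fold higher). Ralgds, an exchange factor for the GTPase Ral, went from 0 to 109 and 101 counts (at least 71.6-fold higher). C3ar1, the receptor for the complement fragment C3a, went from 0 to 87 and 64 counts (at least 51.5-fold higher). Marco, a scavenger receptor, went from 0 to 42 and 39 counts (at least 27.6-fold higher). Smpdl3b, a membrane-bound sphingomyelinase-like protein, had 0 and 1 counts before and 185 and 181 after R848, and Saa3, an acute-phase protein, 1 and 0 before and 209 and 136 after. With so few counts before stimulation the size of these 2 rises was uncertain, with ratios of 374 (95% exact counting interval 66.7 to 14818) for Smpdl3b and 353 (62.9 to 13970) for Saa3. Adgb and Txlnb, which encode androglobin and β-taxilin and are not known as neutrophil genes, went from 0 counts to 36 and 29 and to 37 and 19.

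The genes with the steepest falls included the AP-1 genes Fos and Fosb. Fos had 1505 and 1414 CPM in KO-Nostim and 15.99 and 14.7 in KO-R848, a fall of 94.0-fold (log2 fold change -6.55, standard error [SE] 0.14), and its partner gene Fosb went from 36 and 48 counts to 0 in both libraries (at least 27.4-fold lower). Both libraries of KO-R848 lay far below both of KO-Nostim. Klf4, a transcription factor of the monocyte lineage, went from 29 and 58 counts to 1 in each library. Podxl, a sialomucin of blood progenitors and endothelium, went from 34 and 70 counts to 1 and 0, and Mcam, an endothelial adhesion molecule, from 58 and 89 to 2 and 1. Enzyme genes fell as well. Nat8l, which makes N-acetylaspartate, went from 40 and 54 counts to 1 and 2, and Ada, the adenosine deaminase, from 21 and 31 to 2 and 0. Other genes of this group were Rasl11b (24 and 20 counts to 1 in each), the cyclin-like Ccno (50 and 64 to 4 and 2), the calcitonin-family coreceptor Ramp1 (41 and 67 to 2 and 4), Sema4f (33 and 51 to 4 and 2), Itih5 (44 and 71 to 5 and 4) and Tmem173 (24 and 28 to 2 in each), which encodes STING, the adaptor for cytosolic DNA.

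Col1a1 and Col1a2, the chains of type I collagen, were also among the steepest falls, from 172 and 316 to 14 and 18 counts and from 187 and 397 to 17 in each library. Both belong to a list of stromal and endothelial markers, of which 6 of the 12 tested fell, or 4 of the other 10. With DESeq2 5 of the 12 fell and with library size alone 8. None rose by the call (0 also at an unadjusted p under 0.05 in edgeR and with DESeq2). The summed level of that list was 1644 and 1847 CPM of the library total in KO-Nostim and 176 and 163 in KO-R848, and 699 and 788 against 65.6 and 50.8 in WT, and Fn1 (fibronectin), which myeloid cells can also make, held most of it with 730 and 1154 counts before and 148 and 135 after R848. In bulk RNA, fewer cells of a type and less RNA per cell cannot be told apart. The part of stromal RNA in the other falls was not tested.

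**Figure D2:**
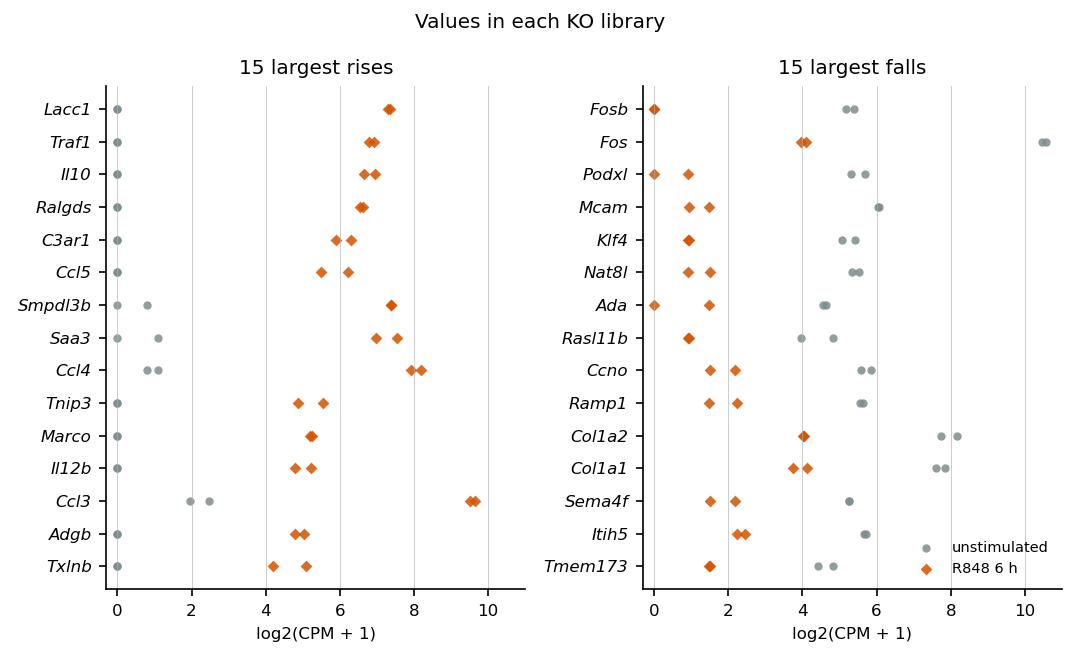
The log2(CPM + 1) of the 15 largest rises and the 15 largest falls among called genes with at least 10 counts on average is drawn for each of the 4 Padi4 KO libraries, with 1 row for each gene. The 2 KO-Nostim points and the 2 KO-R848 points of every gene stand apart, which the choice of these genes by their change fixed, and Lacc1, Traf1 and Il10 start at 0.

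The receptors that sense microbial products did not move together. Of the 15 Toll-like receptor genes and accessory factors tested, 7 rose and 3 fell, with a median log2 fold change of 0.71. Cd14, the coreceptor that hands lipopolysaccharide to TLR4, rose from 22.6 and 29.0 to 1409 and 1321 CPM, which was 51.3-fold (log2 fold change 5.68, SE 0.12). Tlr9, the sensor of unmethylated DNA, rose from 6.78 and 7.26 to 41.8 and 46.0 CPM (6.09-fold, SE 0.33 on the log2 scale, edgeR adjusted p = 8.00e-14), and Tlr1 from 4.52 and 7.26 to 25.8 and 23.9 CPM (3.95-fold). The chaperone Unc93b1, which carries TLR7 and TLR9 to endosomes, rose 2.36-fold from 213 and 210 CPM to 485 and 511 and lost the call with library size alone. The 3 genes that fell were Tlr8 (32.8 and 39.2 to 0 and 6.43 CPM, 11.1-fold), the flagellin receptor Tlr5 (33.9 and 31.9 to 6.22 and 4.60 CPM, 5.90-fold) and the lipopolysaccharide receptor Tlr4 (59.9 and 37.0 to 17.8 and 12.9 CPM, 2.98-fold). Tlr7, the receptor of R848, had 27.1 and 23.2 CPM before and 26.7 and 17.5 after, with groups that overlapped and no call (log2 fold change -0.16, SE 0.29, edgeR adjusted p = 0.731).

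Among the signalling genes from MyD88 to TAK1 and IKK, 7 of 26 rose, with a median log2 fold change of 0.68, and none fell by the call (0 also at an unadjusted p under 0.05 in edgeR and with DESeq2). Irak3, an inactive IRAK that holds back TLR signalling, rose from 67.8 and 76.2 to 1329 and 1303 CPM (18.1-fold). Ikbke, an IKK-related kinase, rose from 38.4 and 37.7 to 2064 and 2092 CPM (54.5-fold). Ikbkg, which encodes the NEMO subunit of IKK and whose exons overlap G6pdx on the other strand, rose from 43.0 and 39.2 to 355 and 347 CPM (8.61-fold), and Irak2 from 48.6 and 37.7 to 259 and 277 CPM (6.35-fold). The adaptor gene Myd88 had 147 CPM in each KO-Nostim library and 296 and 275 in KO-R848, without overlap, and stayed under the 2-fold threshold (log2 fold change 0.96, SE 0.11, edgeR adjusted p = 4.89e-16).

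NF-κB genes formed the list with the largest share of calls in one direction. The family consists of DNA-binding subunits, IκB proteins that hold them in the cytoplasm, and feedback regulators that NF-κB itself induces. Of the 23 tested, 20 rose, with a median log2 fold change of 2.17, and none fell by the call (0 also at an unadjusted p under 0.05 in edgeR and with DESeq2, and 1 with library size alone, where 17 rose). Relb rose from 7.91 and 7.98 to 286 and 281 CPM (35.0-fold, edgeR adjusted p = 4.73e-134) and Nfkb2 from 28.3 and 26.9 to 538 and 590 CPM (20.5-fold), the subunits of the noncanonical branch. Rela, the canonical subunit, rose 2.12-fold from 79.1 and 90.0 to 179 and 184 CPM and lost the call with library size alone and with relative log expression factors. Among the inhibitors, Nfkbia (IκBα) rose from 174 and 163 to 1082 and 993 CPM (6.18-fold), the deubiquitinase gene Tnfaip3 (A20) from 18.1 and 15.2 to 436 and 372 CPM (24.5-fold) and its partner Tnip1 from 52.0 and 46.4 to 1146 and 1127 CPM (23.3-fold). Tnip3 had 0 counts in KO-Nostim and 51 and 31 in KO-R848 (at least 27.9-fold higher).

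Since NF-κB genes rose together, the promoters of the called genes were searched for the κB consensus, the binding motif of NF-κB subunits, on both strands. The windows ran from 250 bases before to 50 bases after each RefSeq start (GRCm38.p6), and a window was found for 80.3% of the genes called higher and 81.3% of those called lower. The motif was present in 10.5% of the 1058 windows of genes called higher, 4.25% of the 1153 windows of genes called lower, 4.70% of the windows of genes not called, 5.145% of all windows of tested genes and 4.51% of all 32851 windows in the table. The median GC content was 60.3% for genes called higher and 59% for genes called lower. For the AP-1 motif TGANTCA the shares were 7.56% (higher), 6.33% (lower) and 5.41% (all tested), and for the cyclic AMP response motif TGACGTCA they were 3.21%, 1.30% and 3.06%. A match is a stretch of letters and does not show binding. Windows with a match in genes that rose steeply, in the inhibitor gene Nfkbia, in the chemokine gene Cxcl2 and in the antioxidant gene Sod2 are shown with that of Fos, which fell, and capitals mark the κB match, overlapping matches merged.
Lacc1 (chr14:77036568-77036867, minus strand): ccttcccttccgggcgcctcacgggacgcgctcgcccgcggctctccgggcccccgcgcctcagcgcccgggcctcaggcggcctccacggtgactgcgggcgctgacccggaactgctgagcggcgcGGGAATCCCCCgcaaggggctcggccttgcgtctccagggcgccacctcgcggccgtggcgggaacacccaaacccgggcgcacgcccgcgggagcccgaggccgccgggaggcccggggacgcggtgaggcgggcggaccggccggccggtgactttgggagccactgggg
Tnip3 (chr6:65590148-65590447, plus strand): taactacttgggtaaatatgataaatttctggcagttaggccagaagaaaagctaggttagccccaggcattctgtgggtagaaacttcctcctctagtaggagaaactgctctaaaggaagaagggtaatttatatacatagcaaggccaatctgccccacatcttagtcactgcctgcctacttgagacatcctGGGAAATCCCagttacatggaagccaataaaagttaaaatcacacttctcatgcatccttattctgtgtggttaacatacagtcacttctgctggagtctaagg
Nfkbia (chr12:55492598-55492897, minus strand): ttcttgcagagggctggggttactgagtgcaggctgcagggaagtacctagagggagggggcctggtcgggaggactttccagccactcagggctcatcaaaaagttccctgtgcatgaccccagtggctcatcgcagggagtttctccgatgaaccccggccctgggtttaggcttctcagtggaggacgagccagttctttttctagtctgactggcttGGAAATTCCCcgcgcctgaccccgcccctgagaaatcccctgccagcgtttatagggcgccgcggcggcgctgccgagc
Cxcl2 (chr5:90903649-90903948, plus strand): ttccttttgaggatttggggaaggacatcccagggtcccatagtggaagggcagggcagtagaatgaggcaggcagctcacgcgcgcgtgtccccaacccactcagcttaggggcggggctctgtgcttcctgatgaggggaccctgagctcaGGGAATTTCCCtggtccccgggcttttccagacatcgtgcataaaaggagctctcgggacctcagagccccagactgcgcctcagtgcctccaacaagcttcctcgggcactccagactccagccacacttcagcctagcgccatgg
Sod2 (chr17:13007589-13007888, plus strand): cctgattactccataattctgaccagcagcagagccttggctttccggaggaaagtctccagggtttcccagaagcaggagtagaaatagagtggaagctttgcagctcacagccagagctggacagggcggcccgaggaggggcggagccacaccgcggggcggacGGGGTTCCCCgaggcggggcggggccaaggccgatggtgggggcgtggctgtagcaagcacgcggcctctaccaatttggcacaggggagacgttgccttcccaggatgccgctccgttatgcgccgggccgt
Fos (chr12:85473640-85473939, plus strand): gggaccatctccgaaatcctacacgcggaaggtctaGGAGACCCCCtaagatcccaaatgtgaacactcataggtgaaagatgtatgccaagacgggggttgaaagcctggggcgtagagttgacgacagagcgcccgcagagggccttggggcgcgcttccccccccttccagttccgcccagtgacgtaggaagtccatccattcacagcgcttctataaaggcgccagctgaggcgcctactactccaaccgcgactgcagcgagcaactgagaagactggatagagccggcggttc
The first matched base lay 122 bases before the start in Lacc1, 54 in Tnip3, 29 in Nfkbia, 97 in Cxcl2, 83 in Sod2 and 214 in Fos, whose window also held TATAAA 33 bases before its start.

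The MAP kinase genes, which include the p38 cascade that the study asked about, changed in part. Of 36 tested, 8 rose and 3 fell, and the median log2 fold change of 0.26 turned to -0.11 with library size alone, where 6 rose and 4 fell. Mapk14, which encodes p38α, had 386 and 361 CPM before and 571 and 564 after R848, a rise without overlap that stayed under 2-fold (log2 fold change 0.61, SE 0.09, edgeR adjusted p = 7.39e-11). Mapkapk2, the kinase that p38 activates, rose from 195 and 201 to 1694 and 1648 CPM (8.43-fold), and Map3k8, which couples NF-κB signalling to ERK, from 21.5 and 12.3 to 208 in each library (12.9-fold). Spag9, which encodes the p38 scaffold JLP, had 62.2 and 44.3 CPM before and 77.3 and 80.0 after and was not called (log2 fold change 0.61, SE 0.18, edgeR adjusted p = 0.00364). The phosphatases that turn MAP kinases off went in opposite directions. Dusp16 rose from 4.52 and 5.81 to 450 and 460 CPM (83.5-fold, edgeR adjusted p = 1.19e-209), and Dusp2 and Dusp5 rose 25.9-fold and 21.3-fold from at most 3 counts in a library. Dusp1, the phosphatase of p38 and JNK, fell from 735 and 754 to 116 and 124 CPM (6.19-fold).

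Immediate early genes, which encode short-lived transcription factors induced within minutes of a stimulus, also divided. Of 33 tested, 12 rose and 6 fell (9 and 7 with library size alone), with a median log2 fold change of 0.63. Jun fell from 346 and 353 to 42.7 and 44.1 CPM (8.04-fold) and Egr1 from 37.3 and 30.5 to 6.22 and 4.60 CPM (5.99-fold), beside Fos and Fosb. Nr4a1, an orphan nuclear receptor, rose from 12.4 and 12.3 to 292 and 267 CPM (22.3-fold), Bhlhe40 from 10.2 and 7.98 to 196 and 158 CPM (19.8-fold) and Batf, a partner of Jun proteins, from 17.0 and 12.3 to 82.6 and 82.7 CPM (5.79-fold). The other 2 that fell were Klf4 and Myc, the latter from 21.5 and 19.6 to 4.44 and 5.51 CPM (4.00-fold).

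Genes of secreted signals changed in both directions. Of 17 chemokine genes tested, 7 rose and 4 fell, with a median log2 fold change of 0.64. Ccl3 went from 4 counts in each KO-Nostim library to 892 and 796 (207-fold), and Ccl4, its close relative, from 1 count in each to 328 and 260 (ratio 300.5, 95% exact counting interval 82.8 to 2487.5). Ccl5 had 0 counts before and 82 and 48 after R848 (at least 44.3-fold higher). Cxcl2, which draws neutrophils through CXCR2, rose from 67.8 and 49.3 to 184 and 164 CPM (3.06-fold), and Cxcl10 from 4.52 and 3.63 to 42.7 and 57.0 CPM (12.1-fold). All 5 attract leukocytes to inflamed tissue. Ccl6 fell from 543 and 552 to 201 and 178 CPM (2.89-fold), and the platelet chemokines Ppbp and Pf4 fell 7.60-fold and 2.77-fold. Ppbp and Pf4 belong to the list of megakaryocyte and platelet markers, of which 5 of 10 fell and 1 rose (3 and 1 of the other 8). With library size alone 8 of the 10 fell and 1 rose, and with DESeq2 4 fell and 0 rose. The summed level of the list, much of it theirs, was 254 and 230 CPM of the library total before and 53.5 and 53.8 after. The part of platelet RNA in these falls was not tested.

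Of 29 cytokine genes and antagonists tested, 12 rose and 5 fell (9 and 6 of those that passed edgeR's own filter on low counts), with a median log2 fold change of 2.29, or 0.64 when genes at 0 in a group are set to their bound. Il1b, the pyrogenic cytokine processed by the inflammasome, rose from 286 and 255 to 3155 and 2855 CPM (11.2-fold), and its receptor antagonist Il1rn from 129 and 140 to 1240 and 1114 CPM (8.69-fold). Tnf rose from 21.5 and 17.4 to 729 and 621 CPM (35.2-fold). The subunits of interleukin-12 appeared from 0 counts, Il12b with 41 and 29 and Il12a with 31 and 19 after R848 (at least 23.9-fold and 17.0-fold higher), and lymphotoxin Lta with 14 and 15 (at least 9.88-fold higher). Il6, by contrast, had 0 counts in 3 of the libraries and 2 in the other, so that a change was not detectable at this depth. The 5 that fell were Osm (oncostatin M, 244 and 253 to 39.1 and 57.9 CPM, 5.14-fold), Tnfsf13b (BAFF, 50.9 and 45.7 to 3.55 and 4.60 CPM, 11.4-fold), Tnfsf14 (6.66-fold), Il15 (9.79-fold) and Inhba (2.27-fold).

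Receptors for chemoattractants rose more often than they fell, with 12 higher and 3 lower of 23 and a median log2 fold change of 1.15. Fpr1, the receptor for bacterial formyl peptides, rose from 240 and 290 to 3096 and 2992 CPM (11.3-fold), and Gpr84, a receptor for medium-chain fatty acids, from 14.7 and 20.3 to 437 in each library (24.0-fold). The decoy-like receptor Ccrl2 rose from 5.65 and 8.71 to 131 and 115 CPM (16.1-fold). The chemokine receptors Ccr1 and Ccr2 went the other way, from 274 and 288 to 93.3 and 111 CPM (2.76-fold) and from 167 and 166 to 45.3 and 56.1 CPM (3.29-fold). Cxcr2, the receptor through which neutrophils follow CXCL2, had 1122 and 1040 CPM before and 835 and 880 after and was not called (log2 fold change -0.33, SE 0.08, edgeR adjusted p = 8.08e-05).

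Adhesion genes went both ways. Of 33 tested, 7 rose and 6 fell, and the median log2 fold change of 0.08 was below 0 with relative log expression factors (-0.01), with DESeq2 (-0.00) and with library size alone (-0.30). Icam1, the ligand of the β2 integrins, rose from 6.78 and 4.35 to 397 and 377 CPM (71.0-fold, edgeR adjusted p = 3.05e-189). Itgal, the αL chain of the integrin LFA-1, rose from 529 and 572 to 2598 and 2667 CPM (4.76-fold, edgeR adjusted p = 2.85e-193), and Itga5, the α5 chain of the fibronectin receptor, from 15.8 and 16.7 to 196 and 199 CPM (11.95-fold). Itgb2, the shared β2 chain, had 1641 and 1647 CPM before and 2441 and 2500 after, which did not overlap and stayed under 2-fold (log2 fold change 0.59, SE 0.07, edgeR adjusted p = 8.51e-17). Adam17, a protease that sheds membrane proteins, rose from 70.1 and 55.9 to 301 and 342 CPM (5.21-fold). Cd177, a neutrophil surface protein that binds PECAM-1, fell from 2727 and 2745 to 809 and 914 CPM (3.18-fold), and Itgb7 fell 8.39-fold.

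**Figure D3:**
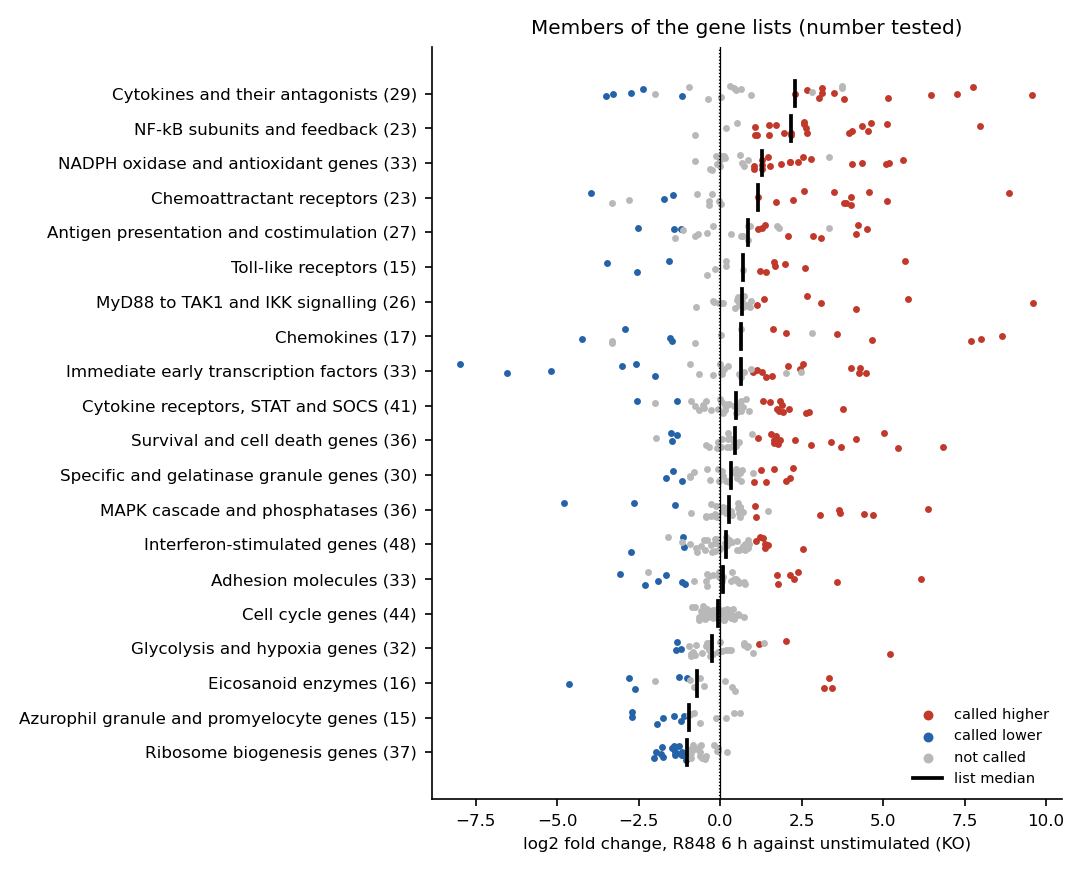
Each point is the log2 fold change from KO-Nostim to KO-R848 of 1 tested gene of 20 gene lists, with the median of each list as a bar and the median of all genes as a dotted line. NF-κB genes lie almost wholly above the line and ribosome biogenesis genes below it, while cell cycle genes cluster around it.

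Cytokine receptors and their feedback genes rose more often than they fell, with 11 higher and 2 lower of 41 (10 and 4 with library size alone) and a median log2 fold change of 0.48. Tnfrsf1b, the TNF receptor 2 gene, rose from 149 and 122 to 1884 and 1749 CPM (13.6-fold), Csf1r, the receptor of macrophage colony-stimulating factor, from 192 and 167 to 1083 and 1102 CPM (6.15-fold) and Il10ra from 44.1 and 41.4 to 281 and 280 CPM (6.59-fold). Il1r2, the decoy receptor of interleukin-1, fell from 182 and 184 to 30.2 and 31.3 CPM (5.93-fold). Socs3, a feedback inhibitor of JAK-STAT signalling, rose from 110 and 92.2 to 264 and 225 CPM (2.46-fold), a call lost with library size alone.

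Interferon-stimulated genes, which type I interferon induces, had a share of calls near that of all genes. Of 48 tested, 7 rose and 3 fell with a median of 0.19, but with library size alone 3 rose and 7 fell and the median was -0.19, so their direction depended on the scaling. Isg15, a ubiquitin-like protein, rose from 29.4 and 22.5 to 56.9 and 73.5 CPM (2.57-fold, edgeR adjusted p = 7.38e-09), and Ifitm2 rose 2.75-fold, whereas Mx1 fell from 9 and 20 counts to 2 in each library. Antigen presentation and costimulation genes counted 9 higher and 3 lower of 27 (7 and 7 with library size alone), with a median of 0.84. Cd274 (PD-L1), the inhibitory ligand of PD-1, rose from 7.91 and 7.26 to 144 and 131 CPM (18.0-fold). B2m, the light chain of MHC class I, rose from 819 and 883 to 2259 and 2206 CPM (2.62-fold), and the activation marker Cd69 went from 1 count in each library to 26 in each, while the immunoproteasome genes Psmb9 and Psmb10 fell 2.28-fold and 2.69-fold.

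Lists of granule genes differed by class. Azurophil granule proteins are made by promyelocytes, and their list also holds promyelocyte genes such as Cebpe and Gfi1 that encode no granule protein. Of the 15 tested, none rose by the call (0 over 2-fold also at an unadjusted p under 0.05 in edgeR, and 0 with DESeq2). A fall was called in 7 (8 with DESeq2, 11 with library size alone), with a median log2 fold change of -0.95. Mpo (myeloperoxidase) fell from 314 and 321 to 41.8 and 55.1 CPM (6.56-fold, edgeR adjusted p = 3.31e-83), Prtn3 (proteinase 3) from 180 and 184 to 38.2 and 56.1 CPM (3.86-fold) and Elane (neutrophil elastase) from 169 and 151 to 51.5 and 41.4 CPM (3.39-fold). The list of later specific and gelatinase granule genes also holds genes beyond granule proteins, such as Stfa2l1. It went both ways, with 7 higher and 3 lower of 30 (6 and 5 with relative log expression factors and with DESeq2). Its median of 0.34 became -0.03 with library size alone, where 5 rose and 6 fell. Lcn2, the siderophore-binding lipocalin, rose from 7619 and 7540 to 23836 and 23699 CPM (3.14-fold), and Chil1 from 656 and 689 to 3044 and 2916 CPM (4.42-fold). Mmp8, the neutrophil collagenase, fell from 3430 and 3606 to 1364 and 1216 CPM (2.73-fold). Mmp9, the gelatinase, had 0.09 on the log2 scale and was not called, and it turned to -0.28 with library size alone.

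Calls among NADPH oxidase and antioxidant genes were rises, with 18 of 33 higher, 15 not called and none lower (0 over 2-fold also at an unadjusted p under 0.05 in edgeR, and 0 with DESeq2). With library size alone 13 were higher and 1 lower. The median log2 fold change was 1.27. Sod2, the mitochondrial superoxide dismutase, rose from 40.7 and 29.8 to 1798 and 1576 CPM (49.2-fold). Fth1 and Ftl1, the heavy and light chains of ferritin, rose from 1149 and 1218 to 20065 and 19506 CPM (16.7-fold) and from 1574 and 1555 to 8543 and 7826 CPM (5.23-fold), and the reads of both could be shared with their pseudogenes. Slc7a11, which imports cystine, rose from 23.7 and 24.7 to 880 and 895 CPM (36.3-fold), Srxn1 (sulfiredoxin) from 5.65 and 3.63 to 156 and 153 CPM (33.8-fold) and the quinone reductase gene Nqo1 from 3.39 and 7.98 to 140 and 119 CPM (20.4-fold), while Ncf1 (p47phox), a subunit of the oxidase, rose 2.42-fold from 1703 and 1630 to 4116 and 3951 CPM, a call lost with library size alone.

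Survival genes rose in 15 and fell in 3 of 36, with a median log2 fold change of 0.45. The antiapoptotic Bcl2a1b went from 0 and 2 counts to 138 and 125, but its copies Bcl2a1a and Bcl2a1d are nearly identical, so their counts cannot be told apart with certainty. Fas, the death receptor, rose from 37.3 and 35.6 to 388 and 377 CPM (10.5-fold), and Pmaip1 (Noxa), a proapoptotic gene, from 4.52 and 3.63 to 50.6 and 57.0 CPM (13.1-fold), so genes of both actions rose. The adaptor Pycard (ASC) fell from 61.1 and 48.6 to 24.9 and 17.5 CPM (2.51-fold).

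Of 32 glycolysis and hypoxia genes, 3 rose and 3 fell (2 and 9 with library size alone), with a median of -0.27, a share of calls near the 16.9% of all genes. Irg1, which makes itaconate in activated myeloid cells, rose from 39.6 and 37.0 to 1431 and 1392 CPM (37.0-fold) and Hif1a from 54.3 and 87.1 to 295 and 307 CPM (4.07-fold), whereas Ldha (lactate dehydrogenase) fell from 596 and 544 to 233 and 220 CPM (2.51-fold). Of 16 eicosanoid enzymes, 3 rose and 5 fell (3 and 8 with library size alone, 3 and 3 with DESeq2), with a median of -0.71. Ptges, the prostaglandin E synthase, rose from 9.05 and 14.5 to 117 and 112 CPM (9.18-fold) and Pla2g7, which degrades platelet-activating factor, from 158 and 139 to 1650 and 1516 CPM (10.8-fold), and the constitutive cyclooxygenase Ptgs1 fell from 65.6 and 53.7 to 8.88 and 10.1 CPM (6.08-fold). Ptgs2, the inducible cyclooxygenase, had 6 and 9 counts before and 8 and 11 after and was not called (log2 fold change 0.37, SE 0.50, edgeR adjusted p = 0.636), and library size alone gave -0.01.

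Ribosome biogenesis genes fell in part. Of 37 tested, 19 fell (15 with DESeq2, 26 with library size alone), 18 were not called and none rose (0 also at an unadjusted p under 0.05 in edgeR and with DESeq2). The median log2 fold change was -1.01. In WT 3 of them fell and 1 rose, with a median of -0.07, and the difference was called lower in Padi4 KO in 3 (0 with DESeq2). Ncl (nucleolin) fell from 244 and 234 to 92.4 and 90.1 CPM (2.61-fold, edgeR adjusted p = 1.25e-25) and Npm1 (nucleophosmin), which has many pseudogenes, from 260 and 253 to 105 and 86.4 CPM (2.67-fold). Nolc1, Gar1 and Dkc1, which serve the small nucleolar RNA particles, fell 3.43-fold, 3.92-fold and 3.56-fold, each from 16 to 90 counts before to 5 to 22 after. The list summed to 1953 and 1976 CPM of the library total in KO-Nostim and 701 and 696 in KO-R848, against 666 and 631 and then 379 and 353 in WT. Cell cycle genes showed no call in either direction among 44 (0 with DESeq2), with a median of -0.07, but 4 fell with library size alone (median -0.45), and 6 rose and 13 fell at an unadjusted p under 0.05 in edgeR.

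Most of the 10 genes with the highest CPM were the same in both groups. S100a9 had 3.76% of all counts in KO-R848 and 4.05% in KO-Nostim, and S100a8, S100a9, Ngp, Ltf, Lyz2, Lcn2 and Actb were among the 10 highest in both groups, while Fth1, Ftl1 and Lcp1 entered that set after R848 and Mmp9, Retnlg and Tmsb4x left it. Of 10 mature neutrophil markers, 1 rose and 3 fell (1 and 4 with library size alone). Of 11 immature ones 4 fell (6 with DESeq2, 8 with library size alone) and none rose by the call (0 over 2-fold also at an unadjusted p under 0.05 in edgeR, and 0 with DESeq2). Their summed levels went from 84966 and 83029 to 75293 and 73758 CPM of the library total and from 47320 and 47669 to 30661 and 31634.

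Markers of other cells moved beside these results, and their part was not tested. Of 19 monocyte and macrophage markers, 5 rose and 5 fell (4 and 7 with library size alone), with a median log2 fold change of -0.93. Their summed level went from 2383 and 2402 to 3824 and 3761 CPM of the library total. Adgre1 and Csf1r held most of that sum after R848 and little of it before. Adgre1 (F4/80) went from 35 and 47 counts to 2091 and 1892, beside rises of Csf1r and Cx3cr1, whereas Ccr2, F13a1, Irf8 and Klf4 fell and the macrophage genes C1qa, C1qb, C1qc, Mertk and Mrc1 had at most 3 counts in any Padi4 KO library. Of 23 erythroid markers, 4 rose and none fell by the call (with 2 lower at an unadjusted p under 0.05 in edgeR, 0 with DESeq2 and 1 with library size alone). Slc4a1, the anion exchanger of red cells, went from 140 and 203 to 535 and 544 counts and Alas2 from 7 and 14 to 51 and 44, and the list summed to 2642 and 2683 CPM of the library total before and 2987 and 2963 after, against 766 and 754 and then 734 and 745 in WT. The adult globin genes Hba-a1, Hba-a2, Hbb-bs and Hbb-bt had 0 counts in all 8 libraries. The B lineage list summed to 179 and 188 CPM of the library total before and 116 and 123 after, most of it Jchain, and the T and NK, eosinophil, basophil and mast cell, and dendritic cell lists to at most 73.0 CPM in any Padi4 KO library, with Cd3g at no more than 1 count.

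The same stimulus in WT neutrophils served as the reference for what differed with the genotype. Both responses were fitted together and their difference (log2 fold change of Padi4 KO cells less that of WT cells) was tested for every gene. The sign of the WT response matched for 926 of the 989 genes called higher (93.6%) and 973 of the 1083 called lower (89.8%). The difference passed a false discovery rate of 0.1 in 577 genes (4.71%), 154 lower (1.26%) and 423 higher (3.45%) in Padi4 KO. That split depended on the scaling, because the median difference over all genes was 0.20 with TMM, 0.12 with library size alone, 0.04 with relative log expression factors and 0.01 with DESeq2. Higher values made up 73.3% of the differences with TMM, 60% with library size alone, 40.7% with relative log expression factors and 28% with DESeq2. They made up 18.5% when the first WT-R848 library was left out (233 lower and 53 higher) and 25.3% without the second (348 lower and 118 higher). Of the 154 genes lower in Padi4 KO, 85 kept the call with DESeq2 and 89 to 141 with 1 library left out, and of the 423 higher ones 35 and 49 to 264 did. Among the genes called higher after R848 in Padi4 KO, 104 (10.5%) had a difference, 41 of them lower and 63 higher than in WT, and among those called lower 50 (4.62%) had one, 21 lower and 29 higher.

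**Figure D4:**
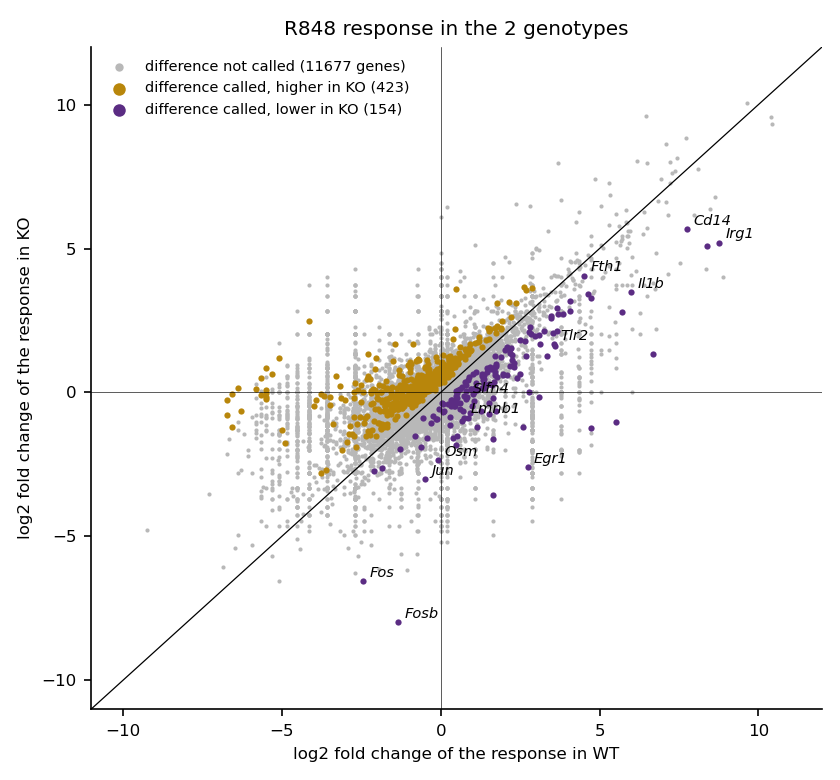
Each point is 1 tested gene, with its log2 fold change after R848 in WT on the horizontal axis and in Padi4 KO on the vertical axis, and with genes whose difference passed a false discovery rate of 0.1 in colour. Most genes lie along the diagonal, and Egr1 lies at the lower right, with 2.74 in WT and -2.58 in Padi4 KO, where stripes of points are genes with very few counts.

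Immediate early genes had a lower response in Padi4 KO in 11 of 33 (14 with relative log expression factors, 8 with DESeq2) and a higher one in none (1 at an unadjusted p under 0.05 in edgeR, and 0 with DESeq2). Egr1 went from 27.8 and 19.0 to 175 and 143 CPM in WT while it fell in Padi4 KO, a difference of -5.32 (SE 0.44, edgeR adjusted p = 2.19e-29). Fos went from 772 and 813 to 149 and 142 CPM in WT, so it fell in both genotypes and more in Padi4 KO, with a difference of -4.11 (SE 0.24, edgeR adjusted p = 6.47e-62). Its level before R848 was higher in Padi4 KO than in WT and its level after R848 lower. Jun had 142 and 147 CPM in unstimulated and 108 and 99.2 CPM in stimulated WT cells, and Osm 158 and 174 and then 159 and 152, against clear falls of both in Padi4 KO. Interferon-stimulated genes had a lower response in Padi4 KO in 6 of 48 (12 with relative log expression factors, 10 with library size alone, 2 with DESeq2), beside 1.26% of all genes, and a higher one in none (0 also at an unadjusted p under 0.05 in edgeR and with DESeq2). In WT 14 of them rose and 1 fell. Among the 6 were Slfn4 (-0.98), Zbp1, a sensor of nucleic acids (-1.44), and Ifitm2 (-0.56).

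Several genes that rose in Padi4 KO rose by a larger factor in WT. Il1b reached 5686 and 4821 CPM in WT from 83.5 and 81.2, a difference of -2.51 (SE 0.15, edgeR adjusted p = 4.02e-57) that combined a higher start with a lower end in Padi4 KO. Tlr2, the receptor for bacterial lipopeptides, had 161 and 152 and then 516 and 481 CPM in Padi4 KO and 89.7 and 89.8 and then 1176 and 977 in WT (difference -1.90, SE 0.18, edgeR adjusted p = 4.18e-23). Cd14, Irg1 and Cxcl2 had the same pattern, with WT levels after R848 of 3092 and 2608, 3347 and 2456, and 809 and 554 CPM and differences of -2.07, -3.55 and -1.97. So did the glutathione synthesis gene Gclm, which reached 377 and 372 CPM in WT from 32.5 and 25.9 and 289 and 308 in Padi4 KO from 57.7 and 74.0 (difference -1.52, SE 0.27, edgeR adjusted p = 5.74e-06), and Gclc, Srxn1 and Prdx1 with differences of -2.07, -3.29 and -1.43. In Gclc the WT level after R848, 46.9 and 54.9 CPM, was below the 83.5 and 94.7 CPM of Padi4 KO, since it had started at 3.09 and 6.91 CPM. Each of these genes started higher in Padi4 KO except Cxcl2, whose unstimulated libraries overlapped between the genotypes. The NADPH oxidase and antioxidant list as a whole had 6 lower and 4 higher differences among 33 (7 and 3 with relative log expression factors, 4 and 1 with DESeq2), with a median of 0.02 that was -0.14 and -0.16 in those fits. The 4 higher ones were the oxidase genes Cyba (0.52) and Ncf1 (0.51) and the peroxidase genes Gpx1 (0.54) and Prdx5 (0.33).

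Other genes had a higher response in Padi4 KO. Klf13, a Krüppel-like transcription factor, fell from 475 and 520 to 177 and 170 CPM in WT and had 254 and 255 and then 179 and 221 CPM in Padi4 KO (difference 1.16, SE 0.17, edgeR adjusted p = 5.61e-09). Hp (haptoglobin) had 1834 and 1829 and then 3652 and 3660 CPM in Padi4 KO and 2890 and 2844 and then 3587 and 4028 in WT (difference 0.59, SE 0.09, edgeR adjusted p = 2.28e-07), and its levels after R848 overlapped between the genotypes. Itgal and Itgb2 had differences of 0.36 and 0.37, and under relative log expression factors or DESeq2 no adhesion gene responded more in Padi4 KO. Cell cycle genes had a higher response in 12 of 44 with TMM, beside 3.45% of all genes, 4 with relative log expression factors and 1 with DESeq2. A lower one was called in 1 of them. None of the 44 was called in the response of Padi4 KO, whereas in WT 13 fell and 0 rose. Mcm4, part of the replicative helicase, had 97.2 and 96.5 and then 72.0 and 93.7 CPM in Padi4 KO and 51.0 and 46.6 and then 14.3 and 10.6 in WT (difference 1.75, SE 0.43, edgeR adjusted p = 0.00374). These moved with 11 of 23 erythroid markers (9 with relative log expression factors, 2 with DESeq2), and the part of erythroid RNA was not tested. For the genes behind the study's question, Spag9, Mapk14, Ptgs2, Icam1, Rnf11, Hbp1, Myd88 and Tlr7, the difference did not pass, with values between -1.82 (Icam1, SE 0.90, edgeR adjusted p = 0.366) and 0.82 (Tlr7, SE 0.41, edgeR adjusted p = 0.356), which does not show that the genotypes responded alike. In WT the rises of Spag9 (1.15), Ptgs2 (2.05) and Rnf11 (1.04 on the log2 scale) passed the call that those of Padi4 KO did not. After R848, Spag9 had 77.3 and 80.0 CPM in Padi4 KO and a higher level, 165 and 158 CPM, in WT (log2 difference of levels -1.03, edgeR adjusted p = 3.12e-08), and Ptgs2 had 7.11 and 10.1 CPM against 67.3 and 49.6 (-2.73, edgeR adjusted p = 1.09e-12). By these estimates, part of the gap of Spag9 and of Ptgs2 was already present without R848, and the difference of response passed for neither. Il1b, Itgal and Itgb2, which belong to the same question, did pass the test of the difference.

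Of the genes called in both genotypes, 4 were called in opposite directions, namely Egr1, Ddx21, Hspa1b and Slc38a6. Ddx21, a nucleolar helicase, had 80.3 and 80.6 and then 27.5 and 42.3 CPM in Padi4 KO and 18.6 and 19.0 and then 61.1 and 24.8 in WT, with WT libraries that differed widely after R848. Hspa1b and Slc38a6 had at most 15 counts in any library. In Padi4 KO the call of Ddx21 was lost without the first KO-R848 library, and those of Hspa1b and Slc38a6 were each lost with 3 of the 4 KO libraries left out in turn.

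**Figure D5:**
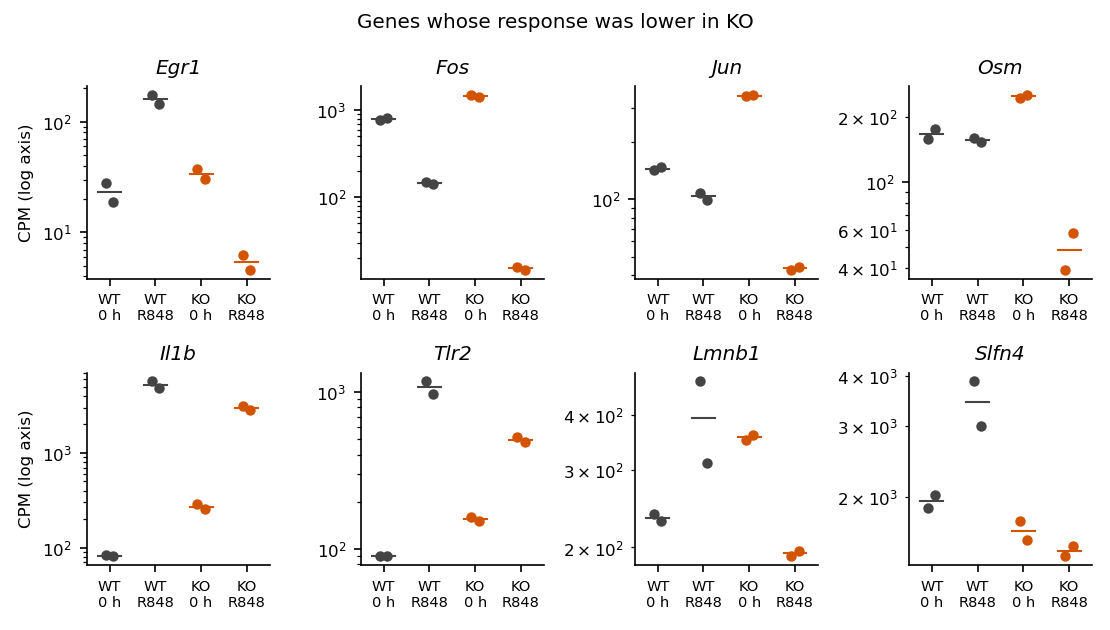
CPM on a log axis of Egr1, Fos, Jun, Osm, Il1b, Tlr2, Lmnb1 and Slfn4, the 8 genes with the smallest p among those with a lower response in Padi4 KO, is drawn for each of the 8 libraries (points) with the mean of each group (lines). Fos and Jun start higher and end lower in Padi4 KO than in WT, and Egr1 rises in WT and falls in Padi4 KO.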

How the data were processed

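RNA-sequencing of 8 neutrophil libraries was analysed, in 4 groups of 2 taken from the labels. The deposited table holds raw read counts per gene, which the authors made from paired-end TruSeq v2 libraries (a kit that does not mark strand) with FastQC 0.11.7, cutadapt 1.16, the FASTX toolkit, STAR 2.5.3a on mm10 and HTSeq 0.6.1p1. The gene annotation and strand setting are not given in the sources used here. The 5 HTSeq summary lines were left out, and between 87.0% and 89.5% of the counts with them lay on genes. Counts were fitted with edgeR 4.0.16 (R 4.3.3, limma 3.58.1) as 4 group means over all 8 libraries, with TMM factors and robust quasi-likelihood, and the common biological coefficient of variation was 4.68%. The study names DESeq2, which was an alternative here (DESeq2 1.42.0). Other alternatives were the filter, the scaling, the libraries fitted, a replicate block and the threshold. Duplicates differed by more than counting noise (chi-square over degrees of freedom 1.055 in KO-Nostim, 1.162 in KO-R848, 1.127 in WT-Nostim and 1.668 in WT-R848, the highest). The script was tested on simulated data.

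Genes were named by a rule: the 15 largest rises and 15 largest falls among called genes with a mean of at least 10 counts, up to 5 called members of each of 20 lists in each direction, genes of the study's question, the 8 smallest p of the difference in each direction, and the 10 highest CPM of each group. Adgre1, Alas2, B2m, Cd3g, Cx3cr1, Cxcl2, Cxcr2, Cyba, Ddx21, F13a1, Fas, Fn1, Fpr1, Gclc, Gclm, Gpx1, Hspa1b, Il1rn, Il6, Irf8, Jchain, Mapkapk2, Mcm4, Mertk, Mrc1, Myc, Ncf1, Ncl, Nfkbia, Npm1, Prdx1, Prdx5, Rela, Slc38a6, Slc4a1, Socs3, Unc93b1 and the C1q and globin genes were named outside it, after their values were seen, and some genes the rule names are not reported here. The members and lists were chosen with earlier results of these data known. Where a group had 0 counts, a fold is a lower bound against 3 counts over the group; ratios of 1 to 3 counts carry 95% exact intervals, which, like that floor, cover counting error only. Of 189 genes placed on GENCODE M21, 24 overlap exons on the other strand (Lacc1, Myd88, Il1b, Irak3, Nfkb2, Dusp1, Cxcl10, Csf1r, Adam17 and Psmb9 among them), whose reads cannot be told apart without strand. Figures used Python 3.11.15 and matplotlib 3.10.9.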

Additional observations from a re-analysis of the deposited data

Results flagged for a closer look

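The response to R848 differed between Padi4 KO and WT neutrophils by the test of the difference itself (edgeR's quasi-likelihood F test, Benjamini-Hochberg adjusted) in the 16 genes with the smallest p-values, 8 in each direction, where each value is the log2 fold change of Padi4 KO cells less that of WT cells. The response was lower in Padi4 KO for Fos (-4.11), Il1b (-2.51), Egr1 (-5.32), Tlr2 (-1.90), Jun (-2.52), Osm (-2.27), the lamin gene Lmnb1 (-1.61) and the Schlafen gene Slfn4 (-0.98). It was higher in Padi4 KO for the glycolytic enzyme gene Gpi1 (0.81), Trp53inp1 (1.11), Klf13 (1.16), Abtb1 (1.11), the chromatin regulator Asxl1 (1.22), the adaptor Pram1 (0.86), the mitochondrial carrier Ucp2 (0.76) and Hp (0.59). Lmnb1 had 352 and 359 CPM in KO-Nostim and 191 and 197 in KO-R848, against 238 and 230 and then 477 and 312 in WT. With 2 libraries in a group, none could be checked for lying far from the others.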

How the results depend on the processing

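In Padi4 KO, 989 genes were higher after R848. Library size alone gave 624, and leaving out each KO library in turn gave 917 to 966. The 1083 lower genes became 599 with DESeq2 and 2072 with library size alone, and 851 to 952 with a KO library left out. Of the called genes, DESeq2 kept 690 higher and 555 lower. In the difference of response, the 154 genes lower in Padi4 KO became 90 with DESeq2 and 233 with relative log expression factors, and 95 to 348 with a library left out. The 423 higher genes became 35 with DESeq2, 255 with library size alone and 160 with relative log expression factors, and 53 to 291 with a library left out. The lower count was 95 without the first WT-Nostim library, 233 without the first WT-R848 library and 348 without the second, and the higher count 254 to 278 without 1 of the KO libraries, 232 without the first WT-Nostim library and 53 and 118 without the first and second WT-R848 libraries. The cause was not tested. With the replicate number as a block, the counts were 927 higher and 944 lower, and 153 lower and 411 higher for the difference. Same-numbered libraries did not deviate together (correlation 0.020 across 6912 genes in Padi4 KO and -0.010 in WT). Much of the deviation between duplicates was counting noise, which is independent between libraries, so this correlation cannot tell whether the numbers pair the libraries.
Of 2061 values of the 189 named genes under the alternatives, 1995 kept direction and call, 48 (23 genes) lost the call and 11 (6 genes) gained it. Direction turned in 7, in genes without a call: Tlr7, which ranged from -0.50 to 0.10 with a KO library left out (0.10 without the second KO-R848 library), Abtb1, from -0.26 to 0.09 (0.09 without the second KO-Nostim library), and Ptgs2 (-0.01), Pram1 (-0.27), S100a9 (-0.11), Mmp9 (-0.28) and Tmsb4x (-0.01) with library size alone. Of 424 such values of the 40 tested genes named outside the rule, 396 kept direction and call, 27 (11 genes) lost the call, 8 of those genes with library size alone (Cyba, Gclc, Ncf1, Prdx1, Rela, Slc38a6, Socs3 and Unc93b1), and 1 gained it. Of 223 values of the 16 differences given above, 222 kept the call, and Hp lost it without the first WT-R848 library, at 0.25.
Genes with under 10 counts on average, 4575 of those tested, limit what could be called at this depth.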
